A study of Homo sapiens with 16 samples.

Results

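The metallothioneins described here are 9 genes, MT1A, MT1B, MT1E, MT1F, MT1G, MT1H, MT1M, MT1X and MT2A, taken by symbol from the 23340 gene symbols of each count table. Their mRNA was measured by sequencing of polyadenylated RNA from CCLP1, a long-established line of a human intrahepatic bile duct cancer, in 16 libraries that form 8 groups of 2. The study changed the level of PRH, a homeodomain transcription factor encoded by HHEX. In experiment 1, 2 independent clones carrying an shRNA against HHEX were set beside 2 independent clones carrying a scrambled control shRNA, with no virus. In experiment 2, CCLP1 cells received an adenovirus for myc-tagged PRH or an empty adenovirus, with 2 independent infections of each. In experiment 3, a line carrying an shRNA labelled against NOTCH3 and a line carrying a non-targeting shRNA were each infected with either virus, with 2 independent infections of every combination, so that all 8 libraries carry an shRNA and a virus. Infections of 1 line share that line, and p-values from them measure the spread between infections only. The members were chosen by family name, and the family itself, as far as is recorded, was selected on the rise of MT1B in control shRNA cells given the PRH virus, so every comparison that holds those libraries or their empty virus controls is a description below, with no member p-value.

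Metallothioneins are small proteins rich in cysteine that bind zinc, copper and cadmium through their sulphur atoms, buffer free zinc in the cell and take up reactive oxygen. Their genes are induced when zinc binds the transcription factor MTF1, which then recognises short metal response elements in the promoters, and glucocorticoids and oxidative stress can raise them too. In the liver they are known as strongly zinc-responsive genes. MT1 and MT2 genes lie side by side on chromosome 16 in the order MT2A, MT1E, MT1M, MT1A, MT1B, MT1F, MT1G, MT1H and MT1X. Pseudogenes lie between some of them (RefSeq gene annotation).

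The 9 coding sequences are each 186 bases long. Over that length the MT1 genes matched each other at 88.7% to 94.6% of positions in 28 pairs, and MT2A matched the MT1 genes at 88.7% to 95.2%. Reads from such copies can be assigned to the wrong gene or dropped. Of all 50-base stretches of the transcript, the share that also occurs in another annotated transcript was 45.1% for MT1X, 21.8% for MT1B, 20.4% for MT1H, 20.2% for MT1G, 7.05% for MT1M, 5.76% for MT1A, 5.34% for MT1E, 4.89% for MT2A and 3.59% for MT1F. MT1X and MT1B thus had the largest shares among the members with many reads. For MT1B the only other gene was AC026461.2, and no metallothionein. For MT1X the gene sharing most was AC026461.1, followed by metallothionein genes and pseudogenes. What this sharing did to their counts was not tested. How reads that fit several genes were counted is not given in the sources used here.

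Promoters of 4 members, MT2A, MT1B, MT1H and MT1X, were found in the RefSeq table (GRCh38.p14, plus strand). The 250 bases before each transcription start are printed because several of these genes changed together, with capitals at each metal response element core, TGCACNC or TGCGCNC on either strand, and no core overlapping another:
MT2A, chr16:56608334-56608583: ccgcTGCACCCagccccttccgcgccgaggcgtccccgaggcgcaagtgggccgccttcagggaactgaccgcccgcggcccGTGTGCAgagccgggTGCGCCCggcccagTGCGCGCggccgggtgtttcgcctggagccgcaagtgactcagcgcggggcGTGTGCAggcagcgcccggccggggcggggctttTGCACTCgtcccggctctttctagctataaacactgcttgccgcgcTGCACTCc
MT1B, chr16:56651636-56651885: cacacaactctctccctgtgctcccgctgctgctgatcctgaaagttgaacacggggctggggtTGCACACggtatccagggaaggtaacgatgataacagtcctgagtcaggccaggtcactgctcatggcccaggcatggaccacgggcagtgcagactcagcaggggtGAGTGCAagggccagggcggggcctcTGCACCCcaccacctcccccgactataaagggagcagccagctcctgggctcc
MT1H, chr16:56669564-56669813: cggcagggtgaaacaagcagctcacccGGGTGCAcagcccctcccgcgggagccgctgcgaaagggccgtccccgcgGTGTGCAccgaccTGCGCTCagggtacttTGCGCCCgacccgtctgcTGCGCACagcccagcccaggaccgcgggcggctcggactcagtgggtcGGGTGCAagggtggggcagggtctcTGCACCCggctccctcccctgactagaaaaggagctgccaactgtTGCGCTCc
MT1X, chr16:56682220-56682469: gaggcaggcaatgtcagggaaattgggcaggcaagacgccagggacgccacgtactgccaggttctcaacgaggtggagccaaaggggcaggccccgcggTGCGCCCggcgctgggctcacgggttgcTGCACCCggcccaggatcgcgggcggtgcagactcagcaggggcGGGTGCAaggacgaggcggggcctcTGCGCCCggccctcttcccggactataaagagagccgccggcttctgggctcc
These windows held 7 cores in MT2A, 3 in MT1B, 8 in MT1H and 4 in MT1X. Among 35116 promoter windows of the same length, 24.8% held at least 1 core, 1.58% at least 3, 0.370% at least 4 and 0.0313% at least 7. A core on the gene's strand lay 53 to 47 bases before the start in MT1B, MT1H and MT1X, and 54 to 48 bases before it in MT2A. The antioxidant response element TGACNNNGC was matched once, on either strand, in MT2A, MT1B and MT1X, and 10.9% of all windows held it. A match of letters is a description of the window and no evidence of binding.

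**Figure D1:**
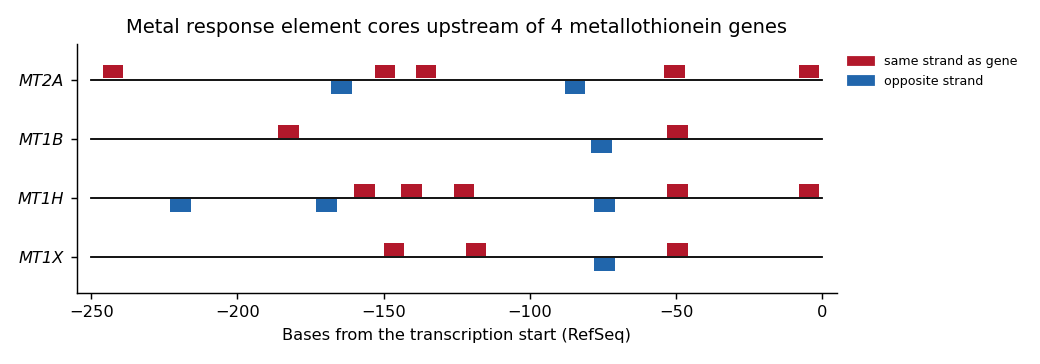
Positions of metal response element cores in the 250 bases before the transcription start of 4 metallothionein genes; the horizontal axis is the distance from the start in bases, red boxes lie on the gene's strand and blue boxes on the other. A red box about 50 bases before the start is present in each of the 4 genes, and MT1H, with 8 boxes, has the most.

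Depth, as reads assigned to genes per library, was 31222553 to 65370072 (experiment 1), 20842954 to 28103162 (experiment 2) and 47366375 to 70064896 (experiment 3), and values below are normalised counts, the read count divided by 1 factor per library. HHEX, the check of the PRH labels, had 314 and 326 normalised counts in PRH shRNA clones against 580 and 554 in control clones (log2 fold change -0.82, adjusted p = 0.9999, limma), so the clones did not overlap but the difference was not called. With the PRH virus HHEX was at 101992 and 69971 against 308 and 423 in experiment 2, and in experiment 3 its mean was 279700 against 664 in the control line and 59243 against 198 in the other. With the empty virus, NOTCH3 was at 655 and 1018 in the libraries labelled NOTCH3 shRNA and at 711 and 838 in the matching control libraries, so the groups overlapped and the label was not borne out there. With the PRH virus it was at 761 and 1086 against 2295 and 2488. The line labelled NOTCH3 shRNA also stood apart in bile duct epithelial markers: the sum of 15 such genes was 394675 to 498608 in its 4 libraries and 10621 to 17965 in the 4 control libraries of the same table. In the control shRNA libraries with the empty virus KRT19 was at 11.3 and 55.4, EPCAM at 14.3 and 28.3 and KRT7 at 0. The bile duct list was mixed there, with 10 of 15 markers at a mean of 10 or more. SOX9, at a mean of 14043, made up most of the sum. Of the hepatocyte markers 3 of 15 were at a mean of 10 or more in these libraries, with a sum of 187 to 221. ALB was at 70.7 and 91.7, and APOA2, APOB, APOC3, TTR and FGB at 0. Because of this, each change between the 2 lines of experiment 3 goes with a large change of epithelial genes and the 2 cannot be told apart, nor, in bulk RNA, can fewer cells of a type and less RNA per cell.

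Of the 9 genes, MT2A, MT1E, MT1A, MT1F and MT1X had reads in 16 of 16 libraries and MT1B in 15 of 16. MT1G had 5 reads in 4 libraries, MT1H 6 reads in 2 libraries and MT1M 2 reads in 2 libraries, each below 10 normalised counts in every library, so these 3 were not detectable above a few reads at this depth. MT1H was thus near 0 although its promoter window held 8 cores, more than that of MT2A, the most highly expressed member. The 6 other members passed the filter in each table, which asked for 2 or more libraries with a normalised count of 10 or higher. MT1B passed it in experiment 3 only through its libraries with the PRH virus, so there it could be tested only because it was high with that virus. Among relatives outside the 9 genes, the pseudogene MT1L had 84 reads in 11 libraries, MT1JP 33 in 9, MT1DP 9 in 3 and MT1IP 0, and of the brain form MT3 and the epithelial form MT4 there were 18 reads in 6 libraries and 0 reads.

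Per kilobase of annotated exon, MT2A had the highest level in all 8 groups and MT1B the lowest of the 6. In control shRNA cells with the empty virus the per kilobase level was 8644 ± 384 (SD, n = 2) for MT2A, 2292 ± 21.7 for MT1X, 2170 ± 86.4 for MT1A, 785 ± 108 for MT1F, 538 ± 63.6 for MT1E and 7.02 ± 1.51 for MT1B. MT1X and MT1A were the closest neighbours in that order, with means little further apart than the sum of their SDs. That closeness depends on the length used, which is all GENCODE exons, 823 bases for MT1X and 396 for MT1A. The transcript of MT1X examined for shared stretches was 450 bases long, and that of MT1A 396. Reads were counted on hg19, so the counted lengths may differ. In empty virus libraries labelled NOTCH3 shRNA the order changed to MT2A at 10805 ± 3569, MT1E at 5082 ± 1870, MT1X at 1703 ± 100.1, MT1A at 395 ± 65.4, MT1F at 171 ± 38.7 and MT1B at 7.92 ± 11.2. MT1E thus stood 5th in the first group and 2nd in the other.

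**Figure D2:**
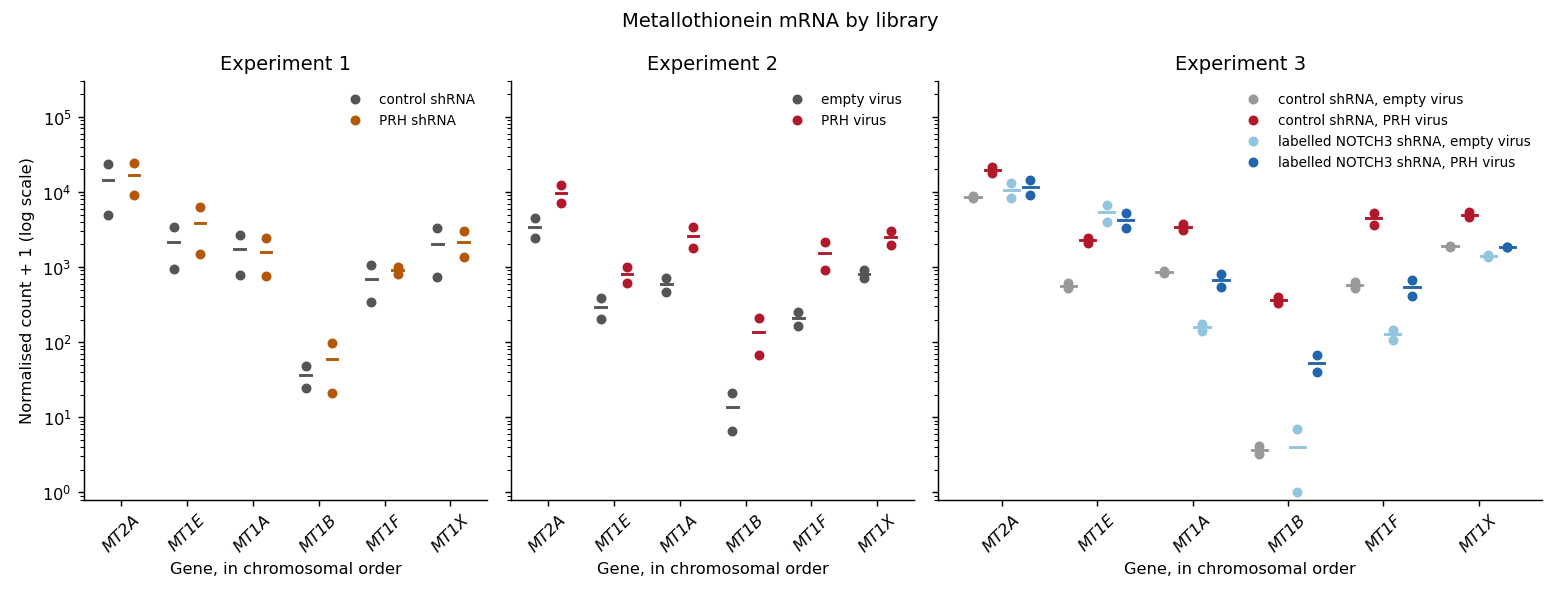
Normalised count plus 1 of the 6 metallothioneins that passed the filter, on a log axis, with genes in chromosomal order; each point is 1 library, each short line the mean of 2 libraries, and the 3 panels are separately normalised experiments. In experiment 2 every PRH virus point lies above both empty virus points of the same gene. The share of all genes split in this way was not counted. In experiment 1 the groups overlap, and in experiment 3 MT1E is highest in the libraries labelled NOTCH3 shRNA.

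In CCLP1 cells with no shRNA in their labels (experiment 2), 5 metallothioneins rose with the PRH virus relative to the empty virus, by 1.49 to 2.77 on the log2 scale with a pseudocount of 1, and MT1B was higher as well. This comparison asked what a high level of PRH does to the cells. Over all genes tested, 15.6% were called, 9.90% higher and 5.73% lower, at an adjusted p under 0.05 (limma, Benjamini-Hochberg over 13263 genes), beside 5 of the 5 members that are tested apart from MT1B. The summed level of the 9 genes was 21988 and 12375 with the PRH virus and 6768 and 3969 with the empty virus, 3.20-fold higher in the mean. In both groups the library called A was higher than library B for each of the 6 genes, letters that only name the libraries.

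MT2A, the most abundant member and the widely expressed form, was at 12193 and 7048 with the PRH virus and at 4486 and 2432 with the empty virus. It rose by 1.49 ± 0.33 (SE) on the log2 scale (adjusted p = 0.0277, limma). MT1X, a ubiquitous and metal-inducible MT1, was at 3002 and 1961 against 914 and 706. With the smallest standard error of the 6, it rose by 1.59 ± 0.22 (adjusted p = 0.00664, limma). MT1E was at 1011 and 620 against 387 and 202, and rose by 1.50 ± 0.34 (adjusted p = 0.0300, limma). The 3 estimates lay within 1 SE of each other.

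MT1A, MT1F and MT1B had larger log2 fold changes. MT1A was at 3434 and 1780 with the PRH virus and at 713 and 460 with the empty virus, a rise of 2.11 ± 0.32 (adjusted p = 0.00896, limma). MT1F was at 2137 and 899 against 248 and 165, a rise of 2.77 ± 0.39 (adjusted p = 0.00712, limma). For MT1B, with 207 and 66.0 against 19.9 and 5.54, the log2 fold change was 3.33 ± 0.70, given with no p because the gene met the filter only through the PRH virus libraries and was the one the family was selected on. In reads MT1B had 309 with the PRH virus and 22 with the empty virus, which is 10.8-fold after normalisation with a 95% interval of 7.02 to 17.5 that covers counting error only. The differences among the 6 fold changes were not tested. None of the calls held without the intensity trend in the variance, where adjusted p-values ran from 0.0521 to 0.119, and MT2A and MT1E were not called without empty virus library B (adjusted p = 0.0546 and 0.0521, limma). Without the filter on low values MT2A and MT1E were not called (0.0730 and 0.0745), nor was MT2A with DESeq2 (0.0618).

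**Figure D3:**
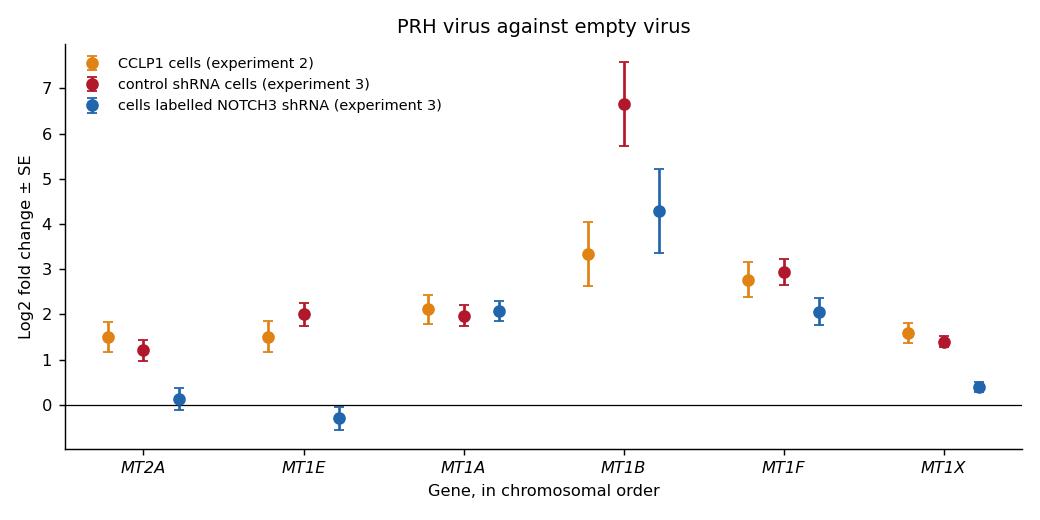
Log2 fold change of PRH virus against empty virus, on log2 of the normalised count plus 1, for 6 metallothioneins in CCLP1 cells of experiment 2 and in both lines of experiment 3; points are estimates and bars 1 SE from the limma fit. MT1A lies near 2 in all 3 settings, while MT2A and MT1E lie at 0.13 and -0.31 in the cells labelled NOTCH3 shRNA and above 1 in the other 2.

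Other genes of metal handling had calls in both directions in experiment 2. MTF1, the zinc sensor that drives metallothionein genes, was at 863 and 863 against 840 and 805 (log2 fold change 0.07, adjusted p = 0.729, limma). SLC30A1, the zinc exporter that is a known target of MTF1, was at 328 and 394 against 336 and 387 (-0.003, adjusted p = 0.993). HMOX1, a haem-degrading enzyme induced by oxidative stress and metals, was at 49289 and 47494 against 59884 and 52605 (-0.21, adjusted p = 0.328). Of 20 tested genes for zinc sensing and transport 6 were called higher and 2 lower, with a median log2 fold change of 0.02 beside -0.01 over all genes. SLC30A3, a vesicular zinc transporter, rose by 2.22, and the zinc importers SLC39A4 and SLC39A11 rose by 0.61 and 0.59, while SLC39A10 fell by 0.70 and SLC30A6 fell by 0.64. Copper and iron genes had 1 call among 13, SOD1, the copper-zinc superoxide dismutase, which fell by 0.45.

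Among stress genes that can share inducers with metallothioneins, antioxidant and heat shock genes had more calls lower than higher in experiment 2. Of 11 genes of the NRF2 antioxidant response 1 was called higher and 4 lower, among them the glutathione synthesis gene GCLM (-0.76), the cystine importer SLC7A11 (-0.71) and thioredoxin reductase TXNRD1 (-0.60). Of 12 heat shock chaperones 10 were called lower, led by HSPA6, which fell from 2464 to 15.8 (-7.02), HSPA1B (-3.04) and HSPA4L (-1.09). Among 9 glucocorticoid-induced genes 2 were called higher, KLF9 (1.62) and DUSP1 (0.57). Bile duct marker sums were 3862 to 4274 against 4478 to 5060, with 9 and 11 of 15 markers at a mean of 10 or more. Their part in the metallothionein rise was not tested. Hepatocyte and endothelial marker sums were 31.0 to 44.3 against 51.0 to 53.8 and 21.7 to 27.5 against 21.0 to 22.2. Fibroblast and leukocyte marker sums were 43686 to 44226 against 48459 to 48546 and 2274 to 3833 against 1687 to 2869. APOB, KDR and CD3E, of the hepatocyte, endothelial and leukocyte lists, were at 0 in all 4 libraries. PDGFRA was the only fibroblast marker at 0, and 8 of 12 fibroblast markers had a mean of 10 or more in both groups. With the PRH virus 1 of 15 hepatocyte, 0 of 10 endothelial and 2 of 11 leukocyte markers reached that mean. With the empty virus 3, 1 and 2 did.

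In the line labelled NOTCH3 shRNA (experiment 3), MT1A and MT1F were higher with the PRH virus, and the groups overlapped for the 2 most abundant members, MT2A and MT1E. HHEX there reached 71911 and 46576 with the PRH virus, against 228980 and 330421 in the control line with the same virus, and the part of that lower level in the results was not tested. Among the tested members other than MT1B, 2 were called higher, where 2.21% of 15836 genes were called, 1.90% higher and 0.309% lower (limma). These calls come from the shared fit of 8 libraries, whose spread takes in the control shRNA libraries on which the family was selected. A fit of the 4 libraries of this line alone called 0 members and 3 of all genes. Summed over the 9 genes the level was 22708 and 15509 with the PRH virus and 21696 and 13789 with the empty virus, so the groups overlapped.

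MT1A was at 798 and 544 with the PRH virus and at 175 and 138 with the empty virus. It rose by 2.08 ± 0.22 on the log2 scale (adjusted p = 0.00913, limma). MT1F was at 407 and 668 against 106 and 146, and rose by 2.06 ± 0.29 (adjusted p = 0.0152, limma). For both genes the groups did not overlap, and the share of all genes without overlap was not counted. The calls did not hold without PRH virus library A (adjusted p = 0.0686 for each) or B (0.0673 and 0.174), nor in a fit of these 4 libraries alone (0.109 and 0.116), and MT1F was not called without empty virus library A (0.0724) or without the intensity trend (0.105).

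MT1B had 45 and 56 reads with the PRH virus and 7 and 0 with the empty virus in this line, or 39.2 and 65.6 against 6.02 and 0 normalised counts. Its log2 fold change was 4.29 ± 0.93, given with no p because the gene passed the filter only through PRH virus libraries, and the ratio of the normalised reads was 14.7 with a 95% counting interval of 6.88 to 37.5. MT1X was at 1850 and 1839 against 1460 and 1343, with a log2 fold change of 0.40 ± 0.11 (adjusted p = 0.117 with limma and 0.0477 with DESeq2). For MT2A the values were 14389 and 9052 against 13209 and 8207 (0.13 ± 0.24, adjusted p = 0.835). MT1E was at 5226 and 3340 against 6736 and 3955 (-0.31 ± 0.26, adjusted p = 0.601). For both of these genes library A was the higher one with either virus.

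Few related genes were called in this line. MTF1 had a log2 fold change of -0.13 (adjusted p = 0.753, limma), SLC30A1 of -0.31 (adjusted p = 0.372) and HMOX1 of 0.34 (adjusted p = 0.713). Of 21 zinc genes SLC39A3, a zinc importer of the plasma membrane, was called higher (0.65), and of 12 NRF2 targets SLC7A11 was called lower (-0.85). Copper and iron genes, heat shock chaperones and glucocorticoid-induced genes gave no call among 15, 12 and 11 with limma; 3, 2 and 4 of them had an unadjusted p under 0.05, edgeR called 0, 0 and 1, and DESeq2 called 0, 1 and 2. Bile duct marker sums were 394675 to 463065 with the PRH virus and 444617 to 498608 with the empty virus.

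In the control shRNA line of experiment 3, whose PRH virus libraries were known to show a high MT1B when the family was proposed, the 6 tested members were all higher with the PRH virus. Over all genes 27.0% were called, 15.2% higher and 11.8% lower, and nothing is read from the members' count beside them. MT1B was at 331 and 402 with the PRH virus and at 3.07 and 2.26 with the empty virus, from 805 and 5 reads, a ratio of 135 with a 95% counting interval of 57.8 to 418. Its neighbour MT1F was at 3681 and 5245 against 632 and 521, a log2 fold change of 2.94. MT1A was at 3081 and 3696 against 883 and 835, and its log2 fold change was 1.97. The log2 fold change of MT1B, 6.65, was the highest of the 6.

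MT1E was at 2102 and 2421 with the PRH virus and at 613 and 518 with the empty virus in control shRNA cells, a log2 fold change of 2.00. MT1X was at 4604 and 5367 against 1899 and 1874 (1.40), and MT2A at 18145 and 21339 against 8836 and 8298 (1.20). For no tested member did the groups overlap, but the share of all genes without overlap was not counted, so nothing is read from this. The summed level was 31944 and 38470 against 12866 and 12048, 2.83-fold higher in the mean. MT1L, the pseudogene next to MT1E, had a log2 fold change of 4.17, from at most 18.7 normalised counts. It met the filter only through PRH virus libraries, as MT1B did, so nothing is read from that value.

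Among related genes in control shRNA cells SLC30A1 was at 1262 and 1149 with the PRH virus against 902 and 734 (log2 fold change 0.56, called), MTF1 at 2323 and 2108 against 1995 and 1896 (0.19, not called), and HMOX1 at 67611 and 119372 against 69234 and 110981 (0.04, not called). Zinc genes had 8 calls higher and 2 lower of 21, with a median of 0.19 beside 0 over all genes. SLC30A3 (2.08), SLC39A11 (1.11) and the zinc and iron importer SLC39A14 (0.76) were higher, and SLC39A10 (-1.17) and SLC30A9 (-0.31) were lower. Copper and iron genes had 1 call each way of 15, the copper exporter ATP7A (1.12) and SOD1 (-0.31). NRF2 targets had 2 calls each way of 12, with OSGIN1 at 1.81 and thioredoxin TXN at -0.78. Heat shock chaperones had 2 lower of 12, HSPE1 (-0.73) and HSPA4L (-0.71), and glucocorticoid-induced genes 4 higher and 2 lower of 11, with KLF15 at 2.63, KLF9 at 2.32, NFKBIA at 1.23, ERRFI1 at -0.57 and SGK1 at -0.49. Bile duct marker sums were 10621 to 11624 against 17910 to 17965 and fibroblast marker sums 43176 to 58972 against 93344 to 109180, and their part in the metallothionein values was not tested.

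Between the 2 lines of experiment 3 the members went in opposite directions. With the empty virus, MT1E was at 6736 and 3955 in the libraries labelled NOTCH3 shRNA and at 613 and 518 in the control libraries, a log2 difference of 3.19. MT1A was lower there, at 175 and 138 against 883 and 835 (-2.46), and so was MT1F, at 106 and 146 against 632 and 521 (-2.20). MT1X, at 1460 and 1343 against 1899 and 1874, differed by -0.43. MT2A, at 13209 and 8207 against 8836 and 8298, overlapped between the lines (0.28), as did MT1B with 7 against 5 reads. Counted by the threshold, 1 member was higher and 3 were lower, where 51.9% of all genes were called, 28.9% higher and 23.1% lower.

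With the PRH virus the same comparison gave 1 member higher and 5 lower, where 47.2% of all genes were called, 26.1% higher and 21.1% lower. MT1B is among the 5, and it passed the filter only through PRH virus libraries. The family was also selected on it, so nothing is read from this count. MT1E was at 5226 and 3340 against 2102 and 2421 (0.89). The others were lower in the libraries labelled NOTCH3 shRNA, by log2 differences of -0.79 for MT2A, -1.43 for MT1X, -2.36 for MT1A, -2.82 for MT1B and -3.07 for MT1F. For none of the 6 did the groups overlap, but the share of all genes without overlap was not counted, so nothing is read from this. Without control PRH virus library A or B 3 members were called, where 5920 and 5713 of all genes were. These 2 comparisons share no library, but share both lines.

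**Figure D4:**
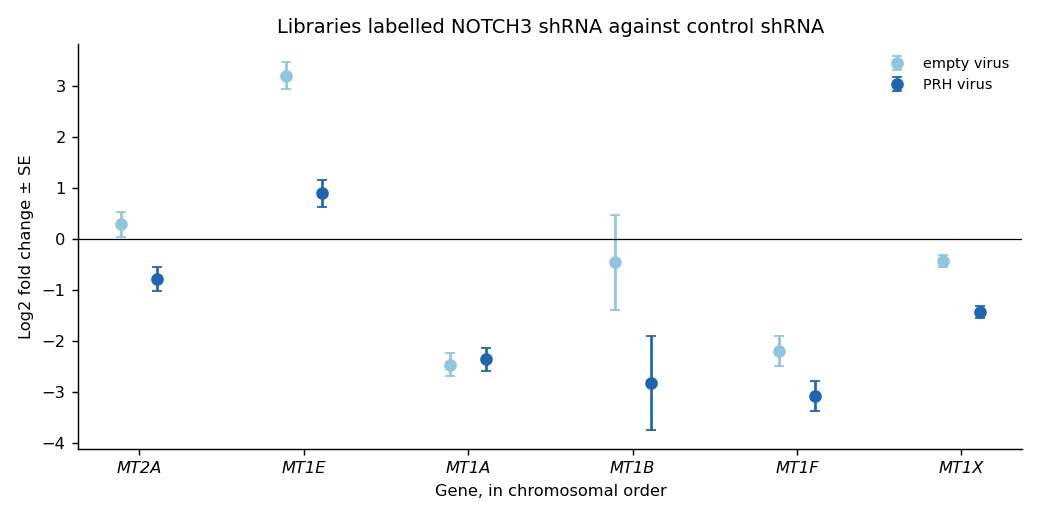
Log2 difference between the libraries labelled NOTCH3 shRNA and the control shRNA libraries, on log2 of the normalised count plus 1, for 6 metallothioneins with the empty virus (light blue) and the PRH virus (dark blue); bars are 1 SE from the limma fit. MT1E is the gene with a clear positive difference, 3.19 and 0.89, while MT1A and MT1F are below -2 with either virus.

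Genes around the family also differed between the lines. SLC30A1 was at 1771 and 1518 in the libraries labelled NOTCH3 shRNA against 902 and 734 with the empty virus (1.01, called), and at 1446 and 1204 against 1262 and 1149 with the PRH virus (0.13, not called). HMOX1 was at 10208 and 20511 against 69234 and 110981 with the empty virus (-2.60, called). MTF1 had differences of 0.01 and -0.31, neither called. With the empty virus the zinc genes had 8 calls higher and 4 lower of 21, led by the importers SLC39A12 (6.84) and SLC39A8 (5.98) and the exporter SLC30A10 (6.02), with SLC30A3 (-1.83), SLC30A4 (-1.38) and SLC39A3 (-1.0) lower. NRF2 targets had 5 higher and 3 lower of 12, with ME1 (9.75) and NQO1 (7.26) opposite to HMOX1. Of 15 bile duct markers 14 were higher and 1 lower, with a median of 7.71.

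A difference of the PRH virus effect between the 2 lines was fitted as an interaction in the same 8 libraries. It holds the control shRNA libraries on which the family was selected, so its values are a description. The effect in the line labelled NOTCH3 shRNA minus that in the control line was -2.30 for MT1E, -1.0 for MT1X, -1.07 for MT2A, -0.88 for MT1F, -2.36 for MT1B and 0.11 for MT1A on the log2 scale. MT1E and MT1X passed the threshold, where 8.39% of all genes were called, 3.48% higher and 4.91% lower, and neither did without the intensity trend; nothing is read from that count. MT1A therefore gave log2 fold changes of 1.97 and 2.08 in the 2 lines, whose levels with the empty virus had a log2 difference of -2.46.

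PRH shRNA clones (experiment 1) addressed the effect of less PRH, and for no metallothionein did the 2 groups separate. MT2A was at 9140 in PRH shRNA clone 1 and 24310 in clone 2, against 4882 in control clone 1 and 23563 in clone 2. MT1E was at 1510 and 6216 against 953 and 3391, and MT1X at 1343 and 2996 against 726 and 3285. In each group clone 2 was the higher one for all 6 genes. MT1A was at 755 and 2456 against 779 and 2653, MT1F at 817 and 1015 against 339 and 1058, and MT1B at 20.3 and 96.0 against 23.4 and 46.8.

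Log2 fold changes in experiment 1 ran from -0.08 for MT1A to 0.77 for MT1E, each with an SE of 0.67 to 0.99 and an adjusted p of 0.9999 (limma). Limma called 0 of 6 members and 0 of 14511 genes, 0% of all; 0 members and 959 genes had an unadjusted p under 0.05, edgeR called 0 and 0, and DESeq2 called 0 members and 703 genes. The summed level was 13586 and 37091 in the PRH shRNA clones and 7703 and 33998 in the control clones. MTF1 had a log2 fold change of 0.01, SLC30A1 of -0.20 and HMOX1 of -1.01, none called. Bile duct marker sums were 34136 and 149153 in the PRH shRNA clones against 12302 and 14622, and their part in these values was not tested. Standard errors of this size left differences of about 1 on the log2 scale undetectable. Larger differences went uncalled as well, such as NOTCH3 at -2.22 and 14 tested bile duct markers with a median of 3.36.

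**Figure D5:**
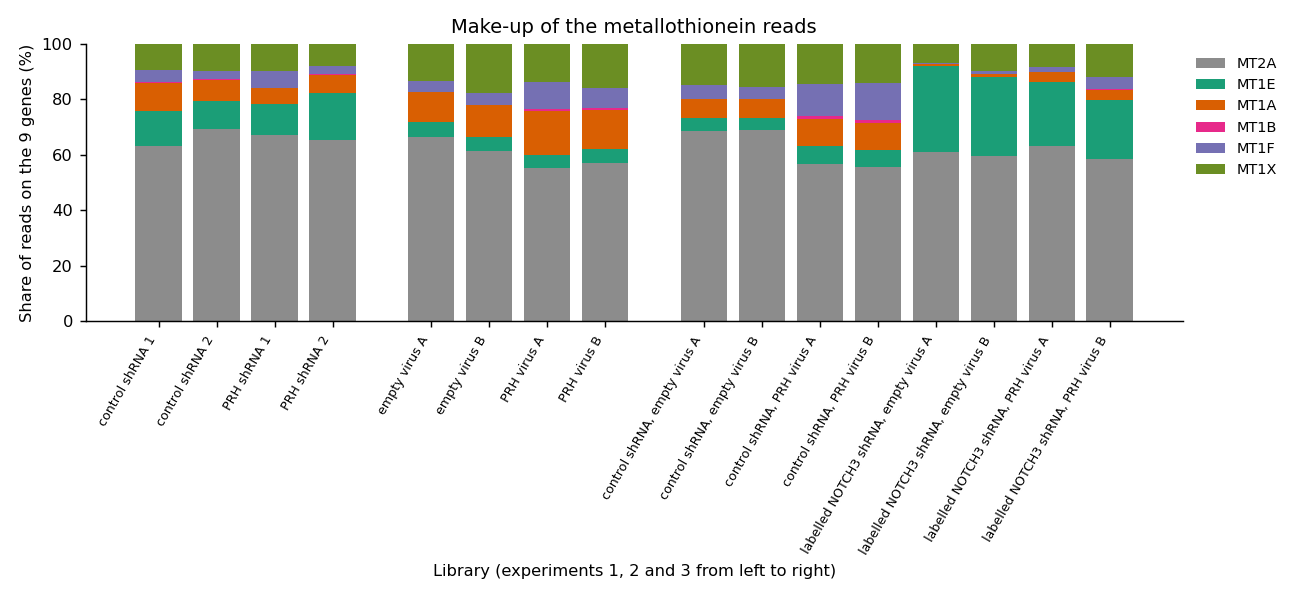
Share of the reads on the 9 metallothionein genes that each gene took, in percent, as 1 stacked bar per library in experiments 1, 2 and 3 from left to right. MT2A takes 55.5% to 69.3% in every bar, MT1E reaches 31.0% in the libraries labelled NOTCH3 shRNA, and MT1F and MT1A widen with the PRH virus in experiments 2 and 3.

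The make-up of the metallothionein reads shifted along with these levels. MT2A took between 55.5% and 69.3% of them in all 16 libraries. With the empty virus, MT1E took 31.0% and 28.7% in the libraries labelled NOTCH3 shRNA and 4.76% and 4.30% in the matching control libraries. MT1A took 0.805% and 1.0% in the first of these groups and 6.87% and 6.93% in the other. MT1F rose from 4.91% and 4.32% with the empty virus to 11.5% and 13.6% with the PRH virus in control shRNA cells, while MT2A went from 68.7% and 68.9% to 56.8% and 55.5%.

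Across the 16 libraries, with log2 levels centred within each table, MT1A and MT1F had the most similar profiles (Pearson's r = 0.947), followed by MT1X and MT2A (0.915). MT1E stood apart, with r of 0.04 to MT1A, 0.05 to MT1F and 0.65 to MT2A. These coefficients are descriptions: the points share lines, viruses and tables, and copies share reads. Of 11320 genes with a mean of at least 50 in each table, the 6 most like the mean profile of the family were C17orf103 (r = 0.960), GRIN1 (0.956), SEMA7A (0.953), KSR1 (0.944), PDK2 (0.941) and FLJ22184 (0.940), where the median gene had -0.01. GRIN1, a glutamate receptor subunit, was at 604 and 759 in control shRNA cells with the PRH virus, 102 and 110 with the empty virus, and 220.3 and 220.4 against 67.1 and 43.3 in the line labelled NOTCH3 shRNA. C17orf103 was at 999 and 1232 against 464 and 491, and 620 and 762 against 385 and 463. Without the 4 libraries labelled NOTCH3 shRNA, their r was 0.944 to 0.982, and C17orf103 was the 1 of the 6 that remained among the 6 highest. HHEX had r of 0.857, at rank 136 of the 11320 genes. NOTCH3 had r of 0.641, MTF1 of 0.532, HMOX1 of 0.362 and SLC30A1 of 0.17.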

How the data were processed

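Polyadenylated RNA of 16 CCLP1 libraries was sequenced. Per the submitters' processing notes the authors used Trim Galore, TopHat, featureCounts and DESeq2 with the hg19 genome (versions not given in the sources used here). Each experiment has its own deposited table of normalised counts (a signal, not raw reads): 100% of values were whole multiples, within 1e-06, of 1 step per library, from which reads were recovered. Comparisons stay within a table. Lines with dates in place of symbols held 0.208% to 0.276% of reads and were left out.

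Log2(value + 1) was tested with limma 3.58.1 (R 4.3.3) with an intensity trend, for genes at 10 or more in at least 2 libraries, with Benjamini-Hochberg adjustment over all genes of the table and calls at an adjusted p under 0.05. The 8 libraries of experiment 3 shared 1 fit of group means. edgeR 4.0.16 and DESeq2 1.42.0 on the recovered reads, other pseudocounts (0.5 and 10), no filter, no trend, equal totals and leaving out each library were alternatives. Columns of experiments 2 and 3 carry no replicate number, so A and B follow column order and are names only, and the control column of experiment 2 is named for GFP where the labels say empty virus. No library was a duplicate, since counts within groups differed with a chi-square of 18.5 to 633 per degree of freedom. The test was also run on simulated counts, in which only genes with a mean of at least 50 were changed and the interaction was not covered. The outcome of that run is not given here. Counting intervals are exact and cover counting error only.

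Members, gene lists and the marker lists (bile duct, hepatocyte, fibroblast, endothelial, leukocyte) were chosen with earlier results of these data known. Named genes are the 9 members, HHEX, NOTCH3, MTF1, SLC30A1 and HMOX1, up to 3 called genes per list and direction with the largest change and a mean of at least 50, and the 6 genes most like the family; MT1L was named after its values were seen, and 1 gene that the rule names is not reported here. Sequences are from RefSeq (GRCh38.p14 promoters) and GENCODE (GRCh38 transcripts), and no hg19 position is given.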

Additional observations from a re-analysis of the deposited data

Results flagged for a closer look

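MT1E and MT1X are listed because their PRH virus effects in the 2 lines of experiment 3 were apart by an interaction term past the threshold (limma over 8 libraries). That term holds the control shRNA libraries on which the family was selected, so the values are a description and no evidence of a difference, and neither gene passed without the intensity trend. For MT1E the effect in the line labelled NOTCH3 shRNA minus that in the control shRNA line was -2.30 on the log2 scale, and for MT1X it was -1.0. MT1E had 2 of 2 control shRNA libraries higher with the PRH virus than both with the empty virus, and overlapping libraries in the other line. How many of all genes were split in this way was not counted. MT1X was higher with the virus in both lines, by 1.40 and 0.40. The line labelled NOTCH3 shRNA had 394675 to 498608 summed bile duct marker counts against 10621 to 17965 in the control line, and less HHEX with the PRH virus (59243 against 279700), whose part in the difference was not tested.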

How the results depend on the processing

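The count of members called is taken here over the 6 tested members, MT1B among them. MT1B, on which the family was selected, was 1 of the 6 calls in experiment 2. It was also 1 of the 4 with DESeq2 for the PRH virus in the line labelled NOTCH3 shRNA. The 6 calls between the lines with the PRH virus and the 6 in control shRNA cells each held it too. Nothing is read from the calls of MT1B. The count of members called moved by over 1.5 times as follows. In experiment 2 it was 6, 3 with no filter on low values and 0 without the intensity trend (all genes 2073, 1382 and 758), and 4 to 6 with 1 library left out. For the PRH virus in the line labelled NOTCH3 shRNA it was 2, 1 without the trend, 4 with DESeq2 (all genes 350, 82 and 1096), 0 in a fit of those 4 libraries alone, chosen after seeing the data (all genes 3), and 0 to 2 with 1 library left out (all genes 1 to 405). Between the lines with the PRH virus it was 6, 3 without the trend and 3 to 4 with 1 library left out (all genes 7472, 6376 and 5713 to 6004). For the interaction it was 2, 0 without the trend and 2 to 4 with 1 library left out (all genes 1329, 351 and 500 to 1187, and 2212 with DESeq2). It was 5 to 6 in control shRNA cells with 1 library left out, where all genes called fell from 4282 to 2730 without the trend and to 2291 to 2958 with 1 library left out. In experiment 1 the calls over all genes were 0, 703 with DESeq2 and 51 to 607 with 1 library left out.

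Summed without MT2A, the level in control shRNA cells changed by 1.99 on the log2 scale instead of 1.50. Without the libraries labelled NOTCH3 shRNA, 1 of the 6 genes most like the family remained. Signs turned in these uncalled values: MT1A in experiment 1 (0.024 with equal totals), MT1B between the lines with the empty virus (0.26 with edgeR, 0.29 with DESeq2), and, with 1 library left out, experiment 1 (MT1A -0.96 to 0.81, MT2A -0.66 to 1.61, MT1E -0.25 to 1.79, MT1B -0.68 to 1.51, MT1X -0.71 to 1.46, MT1F -0.22 to 1.42), the PRH virus in the line labelled NOTCH3 shRNA (MT2A -0.21 to 0.48, MT1E -0.69 to 0.079), the lines with the empty virus (MT2A -0.061 to 0.63, MT1B -1.87 to 0.95) and the interaction (MT1A -0.17 to 0.38). The causes were not tested. Leaving out 1 library leaves 1 sample assumed to vary like the others. Equal totals moved the median of all genes by about 0.10 in experiment 1 and in control shRNA cells. With the replicate block in experiment 1, whose clone numbers the labels do not say pair the clones (correlation of deviations 0.583 across 14511 genes), 0 members and 10 of all genes were called. No paired analysis was possible for experiments 2 and 3 because their columns carry no replicate number.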
